A study of Mus musculus with 18 samples.

Results

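Metallothioneins and the proteins that move zinc across membranes were followed in mouse macrophages treated with dexamethasone, a synthetic glucocorticoid. The 5 genes were Mt1 and Mt2, which encode the metallothioneins themselves, Mtf1, the metal-sensing transcription factor, Slc30a1, the zinc exporter ZnT1, and Slc39a14, the zinc importer ZIP14. They were chosen by name, and every probe set of the array whose only gene symbol was one of them was taken. That gave 9 probe sets of 28898 with a single symbol, for 4 of the 5 genes and of 17097 genes in all. No probe set carried the name Mt2 in the annotation used here, so Mt2 expression was not analysed here. The brightest of 3 Slc39a14 probe sets was set aside because of a fault in the deposited values described with that gene, which left 8 probe sets, and all 8 passed the filter on low values.

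Bone marrow from 3 male C57BL/6 mice aged 10 weeks was grown for 1 week with 10% serum and recombinant human CSF1, the macrophage growth factor, at 10000 U/ml, and the cells were then replated with the same additions. The groups were a baseline group without dexamethasone and cells given 100 nM dexamethasone for 1, 2, 4, 10 or 24 h, with 3 arrays in each of 6 groups and 18 arrays in all. Serum and CSF1 were present in every group, no vehicle group at the later times is described, and time in culture after replating can therefore not be told apart from time with the drug. The replicates are called biological, but the labels do not tie a replicate number to a mouse, so p-values measure the spread between these arrays.

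Metallothioneins are small cysteine-rich proteins that bind zinc and copper and buffer the free metal in the cell. When free zinc rises, MTF1 enters the nucleus and binds short metal response elements in the promoters of Mt1, Mt2 and Slc30a1, so that storage and export rise together. Glucocorticoids are known to raise metallothionein expression in several tissues, and macrophages also adjust metallothioneins and zinc transporters during infection.

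The promoters of Mt1 and Slc30a1 are shown because these were the members that changed, in opposite directions. The sequences are from RefSeq on build GRCm38.p6 and run from 250 bases before to 30 bases after the annotated start, 5′ to 3′ on the plus strand. Mt1 lies at chr8:94178839-94179118 and Slc30a1 at chr1:191906531-191906810. Capitals mark the core of the metal response element, searched as TGCACNC or TGCGCNC on both strands.
Mt1: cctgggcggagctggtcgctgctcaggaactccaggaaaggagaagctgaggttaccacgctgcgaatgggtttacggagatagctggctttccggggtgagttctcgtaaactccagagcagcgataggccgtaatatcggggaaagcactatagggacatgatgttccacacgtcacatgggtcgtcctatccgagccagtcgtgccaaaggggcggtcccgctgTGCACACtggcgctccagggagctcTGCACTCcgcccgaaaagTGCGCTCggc
Slc30a1: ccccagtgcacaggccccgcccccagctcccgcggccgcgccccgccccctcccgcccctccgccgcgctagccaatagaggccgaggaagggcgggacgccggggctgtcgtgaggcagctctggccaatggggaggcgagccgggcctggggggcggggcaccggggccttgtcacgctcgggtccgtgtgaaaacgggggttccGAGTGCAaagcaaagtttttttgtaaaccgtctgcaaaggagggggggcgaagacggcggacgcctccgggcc
The Mt1 window held 3 such matches and the Slc30a1 window 1, on the minus strand. Counted from the start used, the Mt1 matches lay at -23 to -17, 3 to 9 and 21 to 27. The last lies close to the end of the window, and bases beyond it were not searched. The Mt2 window, at chr8:94172368-94172647, held 4 matches and the Mtf1 window, at chr4:124802299-124802578, held 0. Among 32851 promoter windows of this length, 24.1% held at least 1 match, 1.73% held 3 or more and 0.405% held 4 or more. A shortened glucocorticoid receptor motif, ACANNNTGT, occurred once in the Mt1 window and in 6.42% of all windows. This motif reads the same on both strands, so its match belongs to neither strand alone. The full form of the motif had 0 matches in the Mt1, Mt2, Mtf1 and Slc30a1 windows and occurred in 0.00913% of all windows. A form this rare is absent from nearly every window, so its absence here says little. A match describes letters and not a bound site, and sites of either motif outside these windows were not searched for. Annotated transcripts of Mt1 and Slc30a1 can also begin upstream, inside these windows. In the RefSeq gene table Mt2 and Mt1 are neighbours on chromosome 8, with 5316 bases from the end of Mt2 to the start of Mt1 and 0 genes between them. That table starts the Mt1 gene at 94178883, inside the window shown and upstream of the start used for it.

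The values are log2 of the probe set intensity after RMA, and differences are on that log2 scale. Probe sets differ in how well they bind, so levels were not compared between probe sets. Where groups are said not to overlap, this describes the 3 arrays of each group and is not a test. The share of all genes or probe sets whose groups did not overlap was not counted, so separation alone does not set a member apart. A background level of 3.86 log2 was read from 43 control probe sets that match no mouse transcript, and replicate arrays correlated at 0.995 to 0.997. In the treated groups 4 of 5 genes listed as checks of the treatment rose by 2 h, for example Tsc22d3, a direct glucocorticoid target, by 1.80 ± 0.06 (SE) at 1 h with limma adjusted p = 1.12e-16, and at 4 h the receptor gene Nr3c1 fell by 0.27 (adjusted p = 0.0492). Each marker's mean over the 18 arrays was set against background, and not each group. By that mean all 8 macrophage markers were above background, and their summed intensity was 23000 to 24600 over the 18 arrays. Of the 5 fibroblast markers, 0 had a mean above background, and of the other lists 1 of 3 mast cell, 1 of 4 dendritic cell, 2 of 5 T cell, 1 of 3 B cell, 1 of 3 erythroid and 6 of 7 neutrophil markers had.

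Mt1 RNA was higher at 10 h than at baseline and fell again between 10 and 24 h. Mt1 is read by a bright probe set, 1422557_PM_s_at, and a dim probe set, 1451612_PM_at. The suffix _s_at marks a probe set designed to match more than 1 transcript, and since Mt2 is a close relative, its share of this signal was not tested. In the bright probe set, the 3 baseline arrays read 12.39, 12.26 and 12.28, and the arrays at 10 h read 12.66, 12.55 and 12.61. Every 10 h array lay above every baseline array, and the same held at 4 h, where the arrays read 12.53, 12.42 and 12.49. At 24 h the arrays read 12.30, 12.33 and 12.27, inside the baseline range.

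The difference from baseline in Mt1 was 0.30 ± 0.05 (SE, n = 3 against 3 arrays) at 10 h, a 1.23-fold rise with a 95% interval of 0.19 to 0.41 and limma adjusted p = 0.000267. At that time 14.4% of the 13193 genes tested were called in either direction, so a call alone does not set Mt1 apart. The earlier differences of 0.06 at 1 h, 0.08 at 2 h and 0.17 at 4 h did not pass the threshold of 0.05 (limma adjusted p = 0.999, 0.732 and 0.0585). In a fit with the replicate block, Mt1 was called at 4 h (0.17, adjusted p = 0.00261), and in that comparison all 3 same-numbered pairs of arrays had correlated deviations (0.138 to 0.240). At 1 h the arrays read 12.49, 12.28 and 12.35, and at 2 h 12.48, 12.27 and 12.42, both overlapping the baseline arrays. Between 10 and 24 h Mt1 fell by 0.31 ± 0.05 with limma adjusted p = 0.00146, a step in which 2.16% of genes were called. At 24 h the difference from baseline was -0.01 with an interval of -0.12 to 0.10. In whole samples such as these, fewer cells with the RNA cannot be told apart from less RNA per cell.

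The dim Mt1 probe set gave another time course. It read 4.27, 3.99 and 3.97 at baseline and 4.65, 4.67 and 4.61 at 1 h, and then 4.17, 4.10 and 4.46 at 2 h. The arrays at 1 h lay above all the others of this probe set, and from 2 h on every group overlapped the baseline group. In the fit of all 31426 probe sets the difference at 1 h was 0.57 ± 0.14, a ratio of 1.48, and it did not pass the threshold (limma adjusted p = 0.0932), while 0.331% of probe sets did. An F test over the 5 times gave an adjusted p of 0.0165 for this probe set and 0.000996 for the bright one. In the gene fit 17.4% of genes passed such an F test, and the share of all probe sets was not counted. At 10 h the dim probe set differed from baseline by 0.13 ± 0.14 (limma adjusted p = 0.666), with arrays at 4.32, 4.16 and 4.13. It was above the background level on 16 of 18 arrays, and over the 18 arrays its correlation with the bright probe set was 0.185. The rise at 10 h therefore rests on 1 of the 2 Mt1 probe sets. With the mean of both, Mt1 was 0.21 above baseline at 10 h and was not called (limma adjusted p = 0.0553), and the step from 10 to 24 h was -0.27 (adjusted p = 0.0608).

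**Figure D1:**
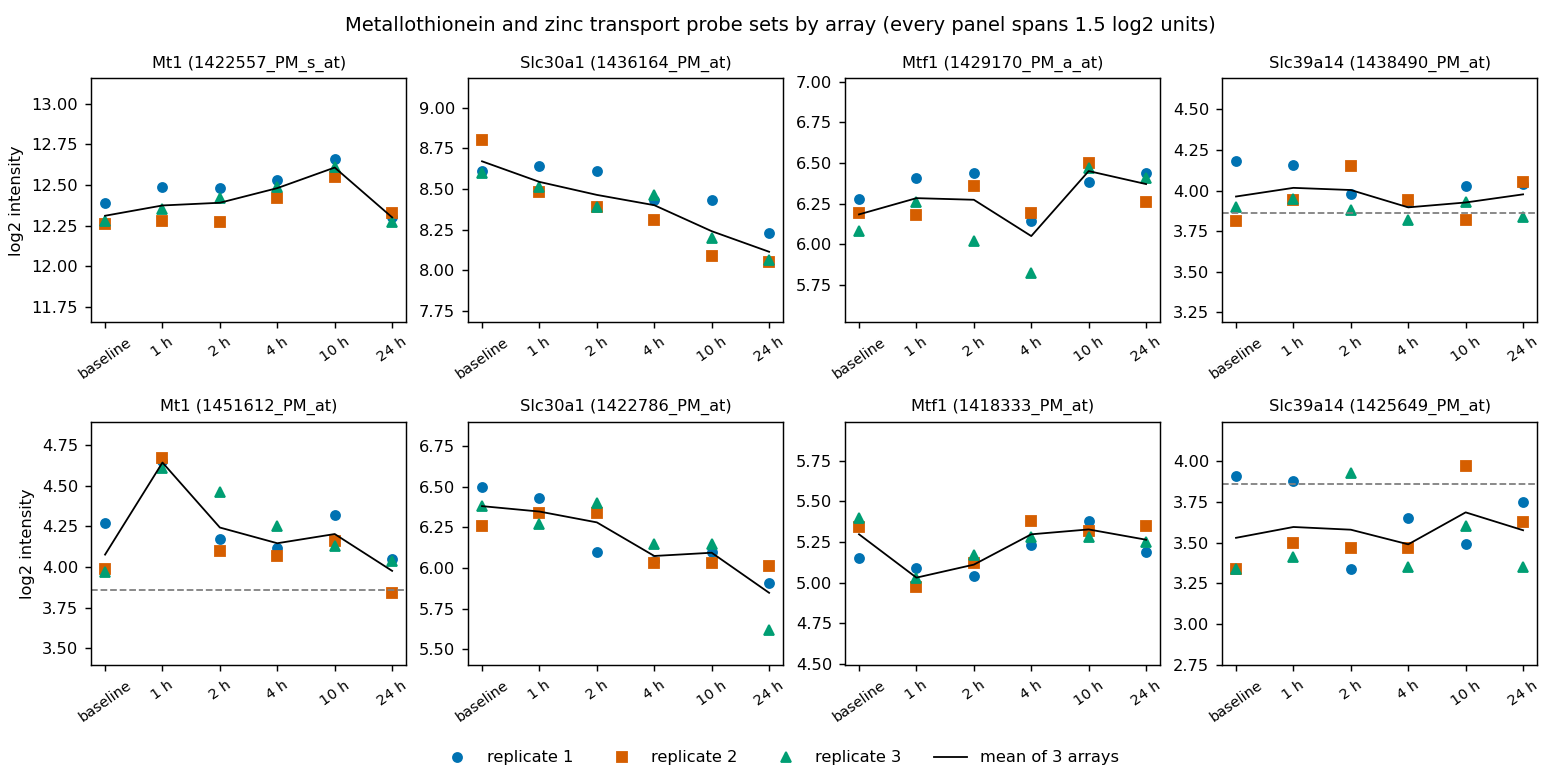
Log2 intensity (vertical axis) of each of the 8 probe sets in every array, by time with dexamethasone (horizontal axis); symbols give the replicate number, the line joins the means of 3 arrays and the dashed line is the background level of 3.86. Mt1 (1422557_PM_s_at) is highest at 10 h with 12.66, 12.55 and 12.61, Slc30a1 is lowest at 24 h in both of its probe sets, and the Slc39a14 probe sets lie at or near the background.

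Slc30a1, the plasma membrane exporter that carries zinc out of the cytosol, was lower at 10 and 24 h. In its bright probe set, 1436164_PM_at, the baseline arrays read 8.61, 8.80 and 8.60, and the 24 h arrays read 8.23, 8.05 and 8.06. Every 24 h array lay below every baseline array, as did every array at 10 h (8.43, 8.09 and 8.20) and at 4 h (8.43, 8.31 and 8.46). At 1 h (8.64, 8.48 and 8.51) and at 2 h (8.61, 8.39 and 8.39) the arrays overlapped the baseline range.

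Slc30a1 fell by 0.43 ± 0.09 (SE, n = 3 against 3 arrays) at 10 h, to 0.742 of the baseline intensity, with limma adjusted p = 0.00104. At 24 h it fell by 0.56 ± 0.09, to 0.680 of baseline, with an interval of -0.74 to -0.38 and adjusted p = 5.71e-05, and 12.7% of genes were called at that time. The differences of -0.13 at 1 h, -0.21 at 2 h and -0.27 at 4 h did not pass the threshold (limma adjusted p = 0.999, 0.413 and 0.0641), and with the replicate block the 4 h value was called (-0.27, adjusted p = 0.0135). No single step between successive times was called for this gene, with changes of -0.16 from 4 to 10 h (adjusted p = 0.387) and -0.12 from 10 to 24 h (adjusted p = 0.616). The group means were in falling order at every time, but neighbouring times did not differ beyond their spread.

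The second Slc30a1 probe set, 1422786_PM_at, gave the same direction. It read 6.50, 6.26 and 6.38 at baseline, 6.10, 6.03 and 6.15 at 10 h, and 5.91, 6.01 and 5.62 at 24 h. No array at 10 or 24 h reached the lowest baseline array, and the 4 h arrays, at 6.04, 6.03 and 6.15, did not either. In the fit of all probe sets it fell by 0.53 ± 0.12 at 24 h (limma adjusted p = 0.00502, with 8.70% of probe sets called), beside a fall of 0.56 in the bright probe set (adjusted p = 0.000111). At 10 h its difference of -0.29 ± 0.12 was not called (adjusted p = 0.159), where the bright probe set was (adjusted p = 0.00178), and 9.70% of probe sets were called. The correlation of both over the 18 arrays was 0.701, the highest among the members with a pair of probe sets.

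Mtf1, the zinc-sensing activator of the metallothionein genes, passed the test at no time in the main fit. Its brighter probe set, 1429170_PM_a_at, read 6.28, 6.19 and 6.08 at baseline, 6.14, 6.19 and 5.82 at 4 h, and 6.38, 6.50 and 6.47 at 10 h. The 10 h arrays lay above the baseline arrays and above the 4 h arrays, without overlap. The difference from baseline at 10 h was 0.27 ± 0.13 (limma adjusted p = 0.184), and that from 4 to 10 h was 0.40 ± 0.13 (adjusted p = 0.0815). With the replicate block the step from 4 to 10 h was called (0.40, limma adjusted p = 0.0356). The arrays at 1 h (6.41, 6.18 and 6.26), 2 h (6.44, 6.36 and 6.02) and 24 h (6.44, 6.26 and 6.41) overlapped the baseline range, with differences of 0.10, 0.09 and 0.19.

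The other Mtf1 probe set, 1418333_PM_at, read 5.15, 5.34 and 5.40 at baseline and 5.09, 4.97 and 5.03 at 1 h. The 1 h arrays were all below the baseline arrays, with a difference of -0.27 ± 0.12 that was not called (limma adjusted p = 1). At 2 h it read 5.04, 5.12 and 5.17, at 4 h 5.23, 5.38 and 5.28, at 10 h 5.38, 5.32 and 5.28, and at 24 h 5.19, 5.35 and 5.25. Each of these later groups overlapped the baseline arrays. Both Mtf1 probe sets had a correlation of -0.141 over the 18 arrays, and the F tests over the 5 times gave adjusted p-values of 0.23 and 0.37.

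**Figure D2:**
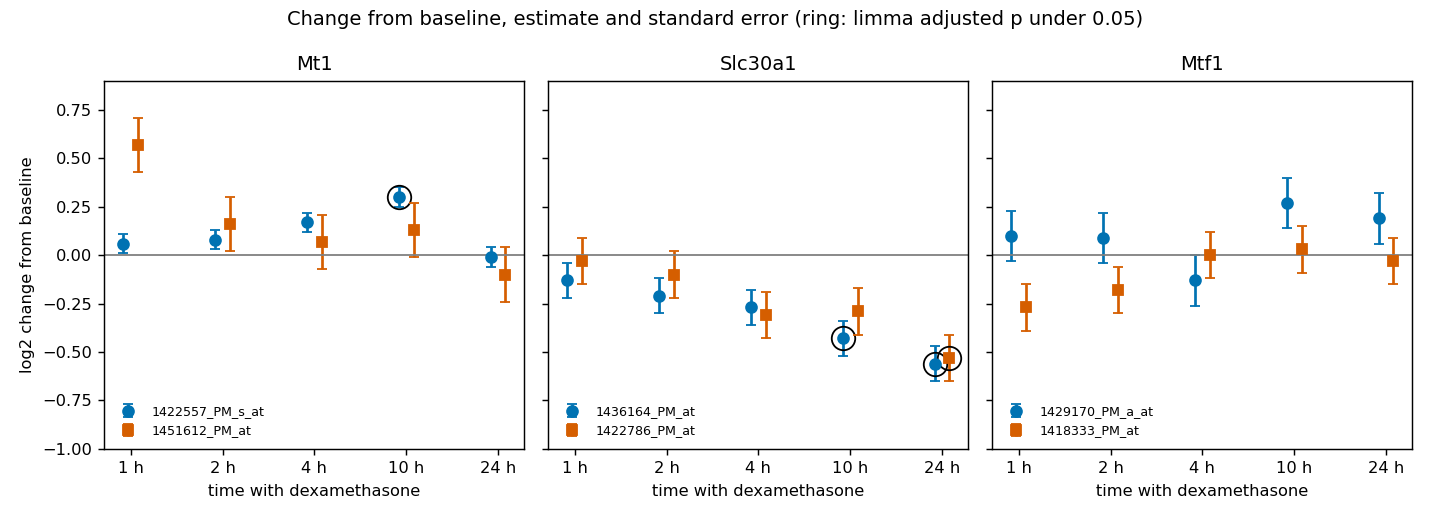
Log2 difference from baseline (vertical axis) with its standard error for each probe set of Mt1, Slc30a1 and Mtf1, by hours with dexamethasone (horizontal axis), from limma fitted on all 31426 probe sets; rings mark adjusted p under 0.05. Rings stand at Mt1 (1422557_PM_s_at) at 10 h, at Slc30a1 (1436164_PM_at) at 10 and 24 h and at Slc30a1 (1422786_PM_at) at 24 h.

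Slc39a14, an importer of zinc, iron and manganese that inflammation induces in liver, gave no call, and its measurement was the weakest of the group. The probe set 1438490_PM_at ranged from 3.81 to 4.18 and was above background on 12 of 18 arrays. The probe set 1425649_PM_at ranged from 3.34 to 3.97 and was above background on 3 of 18. In both, every treated group overlapped the baseline group. The differences from baseline in 1438490_PM_at lay between -0.07 at 4 h and 0.06 at 1 h, with limma adjusted p of 0.865 or more. The intervals at 24 h were -0.26 to 0.28 in 1438490_PM_at and -0.32 to 0.42 in 1425649_PM_at. They describe intensities at or near background and do not bound a change in RNA.

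The brightest Slc39a14 probe set, 1427035_PM_at, lay in a run of 211 consecutive probe sets whose values on baseline replicate 1 fall in even steps from 5.352 to 5.330, without the scatter of measurements. Its value on that array was 5.34, against 6.32 and 6.20 on the other baseline arrays. The treated arrays ranged from 5.78 at 24 h to 6.67 at 2 h, and each treated group overlapped those other baseline arrays. With the stepped value kept, the differences from baseline were 0.39, 0.51, 0.37, 0.34 and 0.17 at 1, 2, 4, 10 and 24 h, and 0 of 5 were called (lowest limma adjusted p = 0.361). With that value missing, and so 2 baseline arrays, they were 0.09, 0.21, 0.06, 0.03 and -0.13. The baseline arrays other than replicate 1 thus lay among the treated arrays.

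Over the 4 genes with values, taking the brightest usable probe set of each, 1 rose and 1 fell at 10 h, and 0 rose and 1 fell at 24 h. At 1, 2 and 4 h, 0 of 4 were called in either direction, beside 0.387%, 2.15% and 7.52% of all genes, and with the replicate block Mt1 and Slc30a1 were called at 4 h. Between successive times, 0 of 4 were called up to 10 h, beside 1.12%, 1.90% and 4.18% of genes in the steps from 1 to 2, 2 to 4 and 4 to 10 h. With the replicate block Mt1 and Mtf1 were called from 4 to 10 h (limma adjusted p = 0.0314 and 0.0356). At 2 h 1.57% of all genes were called higher and 0.576% lower, at 4 h 4.49% higher and 3.02% lower, at 10 h 8.28% higher and 6.15% lower, and at 24 h 7.38% higher and 5.34% lower. The F tests gave adjusted p-values of 0.000692 for Mt1, 0.000301 for Slc30a1, 0.198 for Mtf1 and 0.964 for Slc39a14, with 17.4% of all genes called. All comparisons with baseline share the same 3 baseline arrays, so a deviation of those arrays enters each of them.

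Measures of RNA quality and the marker sums of some cell types differed between baseline and some of the treated groups. The 3′ minus 5′ log2 difference of the Gapdh control probe sets was 0.06 ± 0.03 (SD, n = 3) at baseline and ranged from 0.15 to 0.20 over the 5 treated groups, and that of the actin controls 0.38 ± 0.02 and 0.40 to 0.43. The summed intensity of 3 mast cell markers was 96.5 to 97.5 at baseline, 44.0 to 51.2 at 10 h and 43.9 to 60.7 at 24 h, of which Kit alone was above background, with Cpa3 and Mcpt4 below it. That of 7 neutrophil markers was 699 to 1160 at baseline, 559 to 816 at 10 h and 571 to 699 at 24 h, all but Elane above background. That of 4 dendritic cell markers was 52.7 to 60.6 at baseline, 54.6 to 63.8 at 10 h and 46.9 to 47.2 at 24 h, with only the mean of Itgax above background. At 24 h the T cell sum (80.8 to 84.2) and the erythroid sum (34.1 to 44.4) overlapped baseline (73.6 to 88.6 and 35.1 to 39.9). The B cell sum was lower (62.9 to 70.8 at baseline, 53.6 to 62.7 at 24 h). The macrophage sum (23100 to 23700, then 24000 to 24400) and the fibroblast sum (40.3 to 42.4, then 42.6 to 48) were higher. All 5 fibroblast markers, and the B cell markers other than Cd79b, had means below background, so those sums are largely background intensity. The part of these measures in the changes of Mt1 and Slc30a1 was not tested.

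The other metallothionein genes of the cluster were at or below background. Mt3, known from brain, averaged 3.39 to 3.50 over the groups, and Mt4, known from stratified epithelium, 3.35 to 3.72. Mt4 was called lower at 10 h, by 0.38 ± 0.12 with limma adjusted p = 0.0306, from 3.62, 3.93 and 3.63 at baseline to 3.29, 3.34 and 3.42. All of these but 1 baseline array lie below the background level, and without baseline replicate 2 the difference was -0.27 and not called (adjusted p = 0.175). Mt4 was not called without 10 h replicate 1 or 10 h replicate 2 either (-0.35 and -0.37, adjusted p = 0.0894 and 0.075). Of the 8 nearest genes on both sides of the Mt2 and Mt1 pair, 3 were tested (Mt3, Mt4 and Nup93), and Mt4 was the only call among them at any time against baseline. At 10 h 6.15% of all genes were called lower.

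Among the other zinc exporters of the SLC30 family, 6 of 9 were tested, and 3 of them passed at some time. Slc30a4, which loads zinc into endosomal and secretory vesicles, rose by 0.40 ± 0.09 at 4 h (limma adjusted p = 0.00557), from 9.02, 8.97 and 9.02 to 9.40, 9.35 and 9.46. The groups did not overlap, and it then fell by 0.45 ± 0.09 from 10 to 24 h (adjusted p = 0.00713). Slc30a5, an exporter into the Golgi, fell by 0.16 at 10 h and by 0.18 at 24 h (limma adjusted p = 0.0178 and 0.0112), and the 10 h call was not made without baseline replicate 2, baseline replicate 3 or 10 h replicate 3 (each -0.15, adjusted p = 0.0596, 0.0666 and 0.0639). Without 24 h replicate 2 the 24 h value of Slc30a5 was -0.16 and not called (adjusted p = 0.0551). Slc30a7, also of the Golgi, rose by 0.20 at 24 h with limma adjusted p = 0.0466, a call that 10 of 17 alternative settings did not give, among them those without 24 h replicate 1 (0.16, adjusted p = 0.186), 24 h replicate 3 (0.19, 0.123), baseline replicate 2 (0.17, 0.165) or baseline replicate 3 (0.20, 0.09). By time, 1 rose and 0 fell at 4 h, 0 rose and 1 fell at 10 h, and 1 rose and 1 fell at 24 h, with medians of 0.03, 0.10 and -0.05 beside 0.01 over all genes. Among all genes, 4.49% were called higher at 4 h, 8.28% at 10 h and 7.38% at 24 h, and 3.02%, 6.15% and 5.34% lower.

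Slc39a10 and Slc39a6 were the importers of the SLC39 family with the lowest adjusted p-values, both lower. All 13 other members were tested, 0 rose and 2 fell at 4 h, 1 rose and 3 fell at 10 h, and 1 rose and 4 fell at 24 h. Of all genes, 4.49% were called higher and 3.02% lower at 4 h, 8.28% and 6.15% at 10 h and 7.38% and 5.34% at 24 h. With each array centred on its median, 21.8% of all called genes were higher at 10 h (57.4% as reported) and 20.7% at 24 h (58.0%), so the balance of directions depends on the scaling. Their medians were -0.07, -0.16 and -0.06, beside 0.01 over all genes. Slc39a10, a plasma membrane zinc importer whose gene MTF1 is known to repress, read 9.14, 9.30 and 9.19 at baseline, 8.22, 8.38 and 8.25 at 10 h and 8.64, 8.52 and 8.32 at 24 h. All arrays at 10 and 24 h lay below the baseline arrays. Slc39a10 fell by 0.93 ± 0.07 at 10 h (limma adjusted p = 1.2e-09) and by 0.72 ± 0.07 at 24 h (adjusted p = 1.09e-07). A second probe set of Slc39a10, 1439041_PM_at, fell by 0.97 at 10 h (adjusted p = 0.000322) and differed by -0.49 at 24 h without a call (adjusted p = 0.0819).

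Slc39a6, a close relative and partner of Slc39a10, read 10.62, 10.49 and 10.65 at baseline, 9.85, 10.06 and 10.00 at 10 h and 9.99, 9.98 and 10.03 at 24 h. These groups did not overlap either. The fall was 0.61 ± 0.05 at 10 h (limma adjusted p = 5.04e-09) and 0.58 ± 0.05 at 24 h (adjusted p = 1.43e-08). Its second probe set, 1424675_PM_at, fell by 0.67 and 0.63 at these times (adjusted p = 0.00369 and 0.00723). At 4 h Slc39a10 fell by 0.29 and Slc39a6 by 0.25 (adjusted p = 0.015 and 0.00308), and the second probe set of neither was called then (-0.04 and -0.40, adjusted p = 0.96 and 0.159). Without 4 h replicate 1 or baseline replicate 2 the 4 h value of Slc39a10 was not called (-0.26 and -0.24, adjusted p = 0.0779 and 0.0936).

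Slc39a12, an importer known mainly from brain, was the importer that rose at 10 h, by 0.86 ± 0.14 (limma adjusted p = 8.71e-05), from 4.03, 4.10 and 4.26 at baseline to 4.83, 5.18 and 4.96. It read 4.30, 4.21 and 4.45 at 24 h, a fall of 0.66 ± 0.14 from 10 h (adjusted p = 0.00879). The baseline arrays of Slc39a12 lay just above background. Slc39a8, ZIP8, an importer of zinc and manganese known to be induced in activated macrophages, rose by 0.30 ± 0.08 at 24 h (adjusted p = 0.0113), from 7.96, 8.0 and 7.78 to 8.21, 8.16 and 8.27. Without baseline replicate 3 or 24 h replicate 3 the rise of Slc39a8 was not called (0.24 and 0.28, adjusted p = 0.0828 and 0.0588), and its dim second probe set differed by 0.15 (adjusted p = 0.696). The other calls were Slc39a7 at 10 h (-0.19) and Slc39a4 (-0.56) and Slc39a11 (-0.17) at 24 h, named here after their values were seen.

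**Figure D3:**
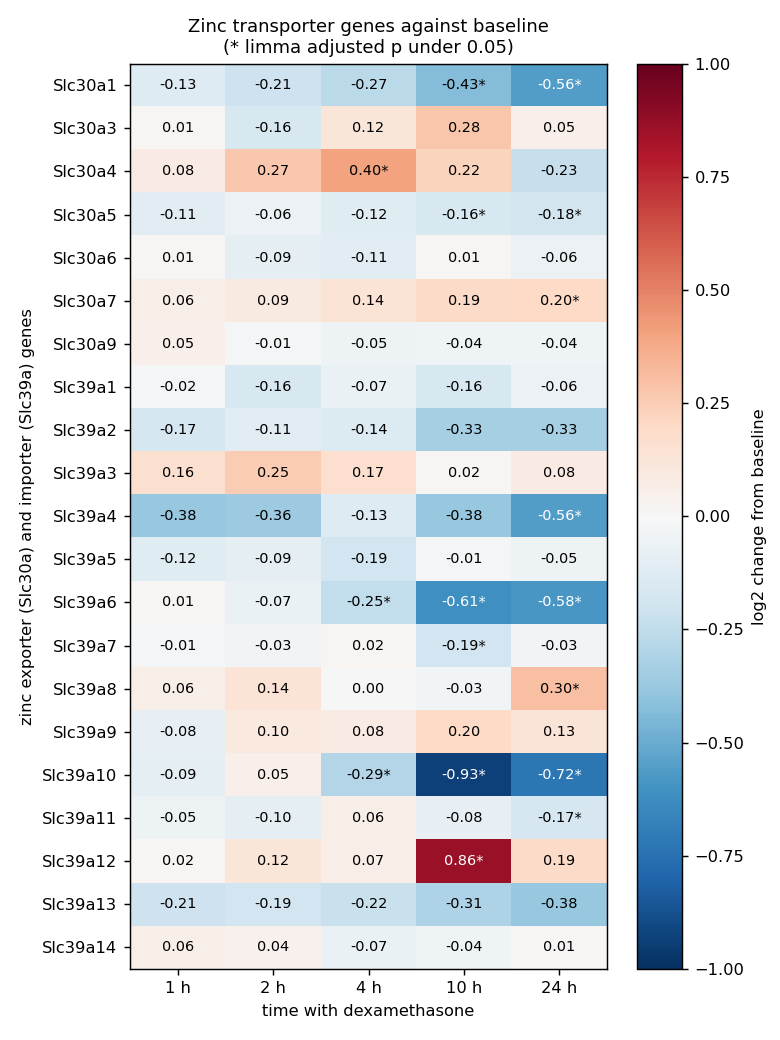
Log2 difference from baseline of each tested SLC30 exporter and SLC39 importer gene (rows) at each time (columns), coloured from blue (lower) to red (higher), with asterisks for limma adjusted p under 0.05. Slc39a10 (-0.93 at 10 h), Slc39a6 (-0.61) and Slc30a1 (-0.43) are lower at 10 and 24 h, and Slc39a12 (0.86) is higher at 10 h alone.

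Of 9 other genes reported to respond to MTF1, 8 were tested, with 1 higher and 2 lower at 4 h, 1 higher and 2 lower at 10 h, and 1 higher and 1 lower at 24 h. Their medians were -0.01, -0.03 and -0.09. The share of all genes called higher was 4.49% at 4 h, 8.28% at 10 h and 7.38% at 24 h, and lower 3.02%, 6.15% and 5.34%. The lower calls were Slc39a10, which this list shares with the importers, and Slc40a1, ferroportin, the iron exporter that macrophages use to recycle iron. Slc40a1 read 8.61, 9.0 and 8.73 at baseline and 7.17, 7.58 and 7.42 at 4 h, without overlap. It fell by 1.39 ± 0.14 at 4 h (limma adjusted p = 8.43e-08) and by 0.62 ± 0.14 at 10 h (adjusted p = 0.00264), and at 24 h its arrays, 8.60, 8.84 and 8.64, overlapped baseline. The higher call was Ndrg1, a stress-responsive gene, which rose by 0.41 ± 0.08, 0.54 ± 0.08 and 0.30 ± 0.08 at 4, 10 and 24 h (adjusted p = 0.000804, 1.41e-05 and 0.0104). Without baseline replicate 1 or 24 h replicate 3 the 24 h value of Ndrg1 was not called (0.26 and 0.25, adjusted p = 0.0544 and 0.0675).

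Genes of copper and other metal handling are given because metallothioneins also bind copper. Of 14 listed, 13 were tested, with 2 higher and 1 lower at 4 h and 3 higher and 3 lower at both 10 and 24 h, and medians of 0.01, 0.05 and -0.12. Over all genes, 4.49% were called higher at 4 h, 8.28% at 10 h and 7.38% at 24 h, and 3.02%, 6.15% and 5.34% lower. The higher calls in this list were copper transporters. Slc31a1, the plasma membrane copper importer CTR1, rose by 0.56 ± 0.06 at 10 h and 0.61 ± 0.06 at 24 h (limma adjusted p = 2.16e-07 and 5.08e-08), from 8.79, 8.73 and 8.78 to 9.39, 9.37 and 9.38 at 24 h. Slc31a2, a CTR1 relative on vesicles, rose by 0.63 ± 0.07 and 0.61 ± 0.07 (adjusted p = 8.92e-07 and 1.35e-06). At 4 h Slc31a2 rose by 0.30, a call not made without 4 h replicate 2 or baseline replicate 3 (both 0.25, adjusted p = 0.0835 and 0.0722) or with the mean of its probe sets (0.25, adjusted p = 0.0744). Atp7a, the pump that moves copper into the secretory pathway and phagosomes, rose by 0.57 ± 0.07 and 0.46 ± 0.07 (adjusted p = 1.44e-06 and 3.4e-05). Cox17, the copper chaperone of cytochrome c oxidase, fell by 0.33 ± 0.05 at 10 h (adjusted p = 3.66e-05), a call not made with the mean of its probe sets (-0.12, adjusted p = 0.344). Atox1 was also called lower, at 4, 10 and 24 h (-0.14, -0.13 and -0.23, adjusted p = 0.0211, 0.0192 and 0.000152). Cp was called lower at 10 h (-0.71, adjusted p = 0.029), with a mean of 3.59 there. The remaining lower calls, at 24 h, were Sod1 and Commd1 (adjusted p = 0.00136 and 0.0109). Atox1, Cp, Sod1 and Commd1 are named here after their values were seen.

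Metallothioneins also respond to oxidative stress, so genes of the NRF2 pathway were read alongside. Of 9 listed, 8 were tested, with 0 higher and 1 lower at 2 h, 1 higher and 2 lower at 4 and 10 h, and 1 higher and 3 lower at 24 h, and medians of 0.00, -0.02, -0.05 and -0.15. At 2 h 1.57% of all genes were called higher and 0.576% lower, and at 4 h 4.49% and 3.02%. These shares were 8.28% and 6.15% at 10 h and 7.38% and 5.34% at 24 h. In this list Hmox1, heme oxygenase, was the gene that rose, by 0.71 ± 0.10 at 10 h (limma adjusted p = 1.93e-05), from 10.41, 10.59 and 10.24 to 11.08, 11.26 and 11.03. Hmox1 was also called at 4 and 24 h (0.44 and 0.37), but not at 4 h without 4 h replicate 2 or baseline replicate 3 (0.38 and 0.36, adjusted p = 0.0533 and 0.0586), nor at 24 h without 24 h replicate 1, 24 h replicate 2 or baseline replicate 3 (0.36, 0.30 and 0.28, adjusted p = 0.0561, 0.0977 and 0.121). Srxn1, sulfiredoxin, fell by 0.68 ± 0.08 at 10 h and 0.85 ± 0.08 at 24 h (adjusted p = 1.19e-06 and 2.84e-08). Its call at 4 h (-0.35) was not made without 4 h replicate 3 (-0.26, adjusted p = 0.0667). Txnrd1, thioredoxin reductase, fell by 0.53 ± 0.05 and 0.43 ± 0.05 (adjusted p = 3.34e-08 and 9.58e-07). The gene of NRF2 itself, Nfe2l2, fell by 0.26 ± 0.05 at 2 h (adjusted p = 0.00414), a call not made with the mean of its probe sets (-0.23, adjusted p = 0.139).

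The genes with the most similar pattern over the 18 arrays are given as a description, with Pearson's r of log2 intensity. For Mt1 they were Ube2h (0.876), Inafm1 (0.864) and Stx18 (0.863). For Slc30a1 they were Slc23a2, a vitamin C transporter (0.936), Tnfrsf12a, the TWEAK receptor (0.897), and Alas1, the first enzyme of heme synthesis (0.897). For Mtf1 they were Smndc1 (0.829), Clock (0.807) and Klhl15 (0.775), and for Slc39a14, near background, Wdr41 (0.765), Fzr1 (0.761) and 2700099C18Rik (0.754). These arrays share their groups and replicate numbers, and each gene was picked from 13193 as the highest.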

How the data were processed

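Expression in 18 samples of mouse bone marrow derived macrophages was measured on 1-colour Affymetrix arrays. The authors deposited linear intensities (5.37 to 15224), one value for every probe set in each array. The submitters' processing notes name RMA and the affy package. RMA subtracts background and equalises the arrays, which would remove a change shared by most genes. Log2 was taken here.

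Genes were named from the platform annotation, and the probe set with the highest mean stood for a gene in the gene fit. Genes reaching the array's 40th percentile on at least 3 arrays were kept (13193 genes and, in the fit of all probe sets, 31426 probe sets). Tests used limma 3.58.1 in R 4.3.3, with a mean for each group fitted over 18 arrays, empirical Bayes with an intensity trend, two-sided p-values and Benjamini-Hochberg adjustment within each comparison at 0.05. Intervals are 95%. The 211 probe sets of the stepped run of baseline replicate 1 were left out. The run was found by a constant step within 1e-06 over at least 10 rows.

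The members and lists were chosen with earlier results of these data known. Named are all members, up to 4 called genes per list by lowest adjusted p, and the 3 most similar genes per member. The array number limits the precision: in simulated data for 24 h with 13193 genes, 16% of changes of 0.25 log2, 66% of 0.5 and 98% of 1 were recovered. Fewer genes changed in the simulation than were called in the data, and recovery under this adjustment depends on that share.

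Same-numbered arrays correlated at 0.023 to 0.289 in their deviations from the group means, and 20 of 27 pairs exceeded 0.1. All pairs did so at 1 h and 4 h against baseline and from 1 to 2 h. The main fit did not pair the arrays in any comparison, these included, so its p-values leave out any such pairing. A fit with the replicate block is given as an alternative.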

Additional observations from a re-analysis of the deposited data

How the results depend on the processing

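The call of Slc30a1 at 24 h was made in 11 of 11 alternative settings (-0.68 to -0.53) and with each of 6 arrays left out (-0.61 to -0.49). Mt1 at 10 h was called in 9 of 11 and in 6 of 6 (0.27 to 0.34), and Slc30a1 at 10 h in 10 of 11 and in 6 of 6 (-0.52 to -0.36). The settings that change the filter or the stepped values leave the values of Mt1 and Slc30a1 as they were. They change only the other genes in the fit, so agreement there adds little. With the probe set of largest variance for each gene, Mt1 at 10 h was 0.13 (adjusted p = 0.669), its step from 10 to 24 h -0.23 (adjusted p = 0.592) and Slc30a1 at 10 h -0.29 (adjusted p = 0.162). Without an intensity trend the Mt1 step from 10 to 24 h was -0.31 (adjusted p = 0.0511). Mt1 at 4 h was called with only the groups compared (0.17, adjusted p = 0.035) and without baseline replicate 1 (0.21, adjusted p = 0.0281), and Slc30a1 at 4 h with the mean of all probe sets (-0.29, adjusted p = 0.0176). The test of Mt2 against Mt1 was not run, since no probe set is named Mt2 in the annotation used here.

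With the replicate block, the counts of genes called were 93 at 1 h (51 without it), 432 at 2 h (283), 500 from 2 to 4 h (251), 945 from 4 to 10 h (551) and 547 from 10 to 24 h (285). The block added Mt1 at 4 h (adjusted p = 0.00261) and from 4 to 10 h (0.0314), Slc30a1 at 4 h (0.0135) and Mtf1 from 4 to 10 h (0.0356). It took no call of a member away. All 18 arrays correlated best with arrays of their own number, a hint from the data and not the design. In the fit of all probe sets, the block gave 6 calls against baseline among the members' probe sets, beside 4 without it.

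The other counts that moved by over 1.5 times were, from 2 to 4 h, 142 with the probe set of largest variance, 157 with the mean and 129 without the trend. From 4 to 10 h they were 356 with largest variance, 321 without the trend and 344 with only the groups compared, and from 10 to 24 h 172, 124 and 176 in the same order. At 10 h, 1255 genes were called with only the groups compared, against 1905. With each array left out, the counts were 41 to 50 at 1 h, 249 to 285 at 2 h, 708 to 920 at 4 h, 1463 to 1700 at 10 h, 1249 to 1631 at 24 h, 90 to 124 from 1 to 2 h, 137 to 168 from 2 to 4 h, 316 to 518 from 4 to 10 h and 145 to 258 from 10 to 24 h. The count from 1 to 2 h was 90 without 1 h replicate 3, and that from 10 to 24 h was 145 without 24 h replicate 1. From 4 to 10 h it was 316 and 334 when replicate 1 or replicate 2 of the 4 h group was left out. From 2 to 4 h it was 137, 143, 144, 160 and 167 without 4 h replicate 2, 4 h replicate 1, 2 h replicate 2, 2 h replicate 1 and 4 h replicate 3. The causes were not tested.

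Centring each array on the median of its tested genes, chosen after seeing the data as was the run of the list genes through the same settings, moved the median change of all genes to -0.11 at 10 and 24 h. The share of called genes that were higher went from 57.4% to 21.8% at 10 h, from 58.0% to 20.7% at 24 h, from 59.8% to 29.2% at 4 h, from 73.1% to 46.3% at 2 h, from 78.4% to 61.1% between 1 and 2 h and from 56.3% to 40.9% between 4 and 10 h. Under it Mt1 at 10 h was 0.18 (adjusted p = 0.0384) and Slc30a1 at 4 h -0.36 (adjusted p = 0.0124), at 10 h -0.55 and at 24 h -0.68. With the mean of probe sets, still called, Slc39a12 at 10 h was 0.45 and Srxn1 -0.37 at 10 h and -0.56 at 24 h, and centring gave Slc30a5 -0.28 at 10 h. The calls of Slc30a7 (0.07), Slc39a8 (0.18), Ndrg1 (0.17) and Hmox1 (0.25) at 24 h and of Slc31a2 at 4 h (0.21) were not made under centring.

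None of the values that changed sign was called in the main setting. With the probe set of largest variance they were Slc39a14 at 10 h (0.15) and from 10 to 24 h (-0.11), Mt1 from 1 to 2 h (-0.40) and from 2 to 4 h (-0.10) and Slc30a1 from 4 to 10 h (0.02). With the mean of probe sets they were Mtf1 at 1 h (-0.08), at 2 h (-0.05) and from 1 to 2 h (0.04), Slc39a14 at 10 h (0.06) and from 10 to 24 h (-0.03), and Mt1 from 1 to 2 h (-0.19) and from 2 to 4 h (0.00). A second quantile normalization gave Mtf1 at 2 h (-0.02) and Mt1 at 24 h (0.01). With the stepped values kept, Slc39a14 was 0.37 at 4 h, 0.34 at 10 h, 0.12 from 1 to 2 h, -0.03 from 4 to 10 h and -0.17 from 10 to 24 h, and with them missing 0.06 at 4 h, 0.03 at 10 h, -0.13 at 24 h and 0.12, -0.03 and -0.17 for the same steps. Centring gave Mt1 at 2 h (-0.02) and from 1 to 2 h (-0.05), Mtf1 at 2 h (-0.01), and Slc39a14 at 2 h (-0.06), 24 h (-0.11) and from 4 to 10 h (0.00). With single arrays left out, the ranges that crossed 0 were, for Slc39a14, -0.02 to 0.17 at 1 h, -0.04 to 0.15 at 2 h, -0.14 to 0.04 at 4 h, -0.12 to 0.07 at 10 h, -0.06 to 0.12 at 24 h, -0.09 to 0.06 from 1 to 2 h, -0.02 to 0.08 from 4 to 10 h and 0.00 to 0.12 from 10 to 24 h. For Mt1 they were -0.04 to 0.03 at 24 h and -0.03 to 0.08 from 1 to 2 h, for Mtf1 -0.09 to 0.12 from 1 to 2 h and for Slc30a1 -0.10 to 0.01 from 2 to 4 h. Signal near background limits the Slc39a14 and Mt4 values.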
